A study of Mus musculus with 72 samples.

Results

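The 18 arrays described here measured gene expression in livers labelled SIRT1 KO, 3 at each of 6 times of day, and were the ones so titled among the 72 arrays of the series. SIRT1 is a deacetylase that uses NAD+ as a cosubstrate. The mice were of the C57BL/6 strain and carried, per the labels, a knockout of Sirt1 restricted to the liver. The labels and notes at hand name no Cre line, deleted exons, sex, age or feeding regime. The animals lived in 12 h of light and 12 h of darkness and were taken every 4 h, at ZT0 (zeitgeber time, hours after lights on), ZT4, ZT8, ZT12 (lights off), ZT16 and ZT20. No treatment other than time separated the 6 groups, all of which carried the knockout, and only the effect of time is reported. The labels do not say that the 3 replicates of a time were separate mice, so a p-value here weighs a difference only against the scatter of these arrays, which may be technical. Each value is the brightness of a probe set, taken as log2(intensity + 16), and its size can be compared between times for 1 gene but not between genes.

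The liver clock is a feedback loop of transcription. BMAL1 (gene Arntl), paired with CLOCK or NPAS2, switches on the Per, Cry, Nr1d, Bhlhe40/41 and Ciart genes from DNA motifs called E-boxes, and their products repress it in turn. The REV-ERB receptors (Nr1d1, Nr1d2) and the ROR receptors compete for a second motif in Arntl, Npas2, Clock, Cry1 and Nfil3. The PAR bZIP factors DBP, TEF and HLF activate, and NFIL3 represses, through another motif, the D-box. In liver, feeding, body temperature and glucocorticoid hormone impose further daily programmes on metabolism and protein folding.

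Upstream sequences of some called genes are shown first. They were picked as holders of a motif that known regulators of their group use. They therefore do not show how often a motif goes with a peak time. Sequences were taken from RefSeq (assembly GRCm38.p6), which listed a window of 250 bases before and 50 bases after a start site for 10455 of the 13308 genes tested. Both strands were searched for the E-box CACGTG, the D-box TTATGTAA, the ROR element TAGGTCA, the heat shock element (GAA, TTC and GAA, each parted from the next by any 2 bases) and the ER stress element (CCAAT and CCACG, parted by any 9 bases). A match describes the letters only, not binding. Each sequence runs 5′ to 3′ on the gene's own strand and ends at the base before the start site, with the matches in capitals. The Arntl stretch lies after its start site and is cut to the match and 10 bases on each side. The first pair hold the ROR element, in genes that peaked late in the night.
Arntl: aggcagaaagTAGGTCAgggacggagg
Nfil3: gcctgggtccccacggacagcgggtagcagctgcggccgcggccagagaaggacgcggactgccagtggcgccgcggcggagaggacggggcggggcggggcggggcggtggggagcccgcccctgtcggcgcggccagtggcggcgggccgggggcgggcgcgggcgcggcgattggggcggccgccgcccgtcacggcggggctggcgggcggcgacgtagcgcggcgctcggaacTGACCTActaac
The Arntl stretch is chr7:113207531-113207557 on the plus strand, 30 bases after one of its listed start sites, and the Nfil3 window is chr13:52981040-52981289 on the minus strand. The next hold E-boxes or D-boxes, in genes that peaked around lights off.
Ciart: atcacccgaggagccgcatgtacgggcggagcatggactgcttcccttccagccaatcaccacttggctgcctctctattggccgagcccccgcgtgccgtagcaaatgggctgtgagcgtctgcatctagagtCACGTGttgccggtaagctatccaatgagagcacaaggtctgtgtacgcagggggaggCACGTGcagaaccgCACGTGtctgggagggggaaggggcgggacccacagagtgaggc
Per1: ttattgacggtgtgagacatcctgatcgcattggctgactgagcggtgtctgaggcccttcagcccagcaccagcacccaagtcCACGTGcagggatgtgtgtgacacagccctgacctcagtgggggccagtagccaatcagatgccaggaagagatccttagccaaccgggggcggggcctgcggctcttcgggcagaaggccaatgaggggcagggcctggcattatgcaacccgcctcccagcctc
Per3: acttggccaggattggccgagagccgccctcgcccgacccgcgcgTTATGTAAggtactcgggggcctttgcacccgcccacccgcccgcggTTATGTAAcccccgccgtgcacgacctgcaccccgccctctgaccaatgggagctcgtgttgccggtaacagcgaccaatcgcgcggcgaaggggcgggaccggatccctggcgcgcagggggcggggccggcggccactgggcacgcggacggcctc
The Ciart window (chr3:95882229-95882478, minus strand) holds 3 E-boxes. The Per1 window (chr11:69098699-69098948, plus strand) holds 1 E-box. The Per3 window (chr4:151044666-151044915, minus strand) holds 2 D-boxes. The last hold 2 overlapping heat shock elements (Hspe1) or an ER stress element (Hspa5, Creld2), in genes that peaked between ZT15.9 and ZT20.2.
Hspe1: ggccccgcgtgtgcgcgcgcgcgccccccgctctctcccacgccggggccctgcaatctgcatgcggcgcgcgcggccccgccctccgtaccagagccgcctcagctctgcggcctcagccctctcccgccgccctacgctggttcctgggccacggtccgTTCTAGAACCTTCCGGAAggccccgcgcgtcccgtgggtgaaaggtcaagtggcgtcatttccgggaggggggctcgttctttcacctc
Hspa5: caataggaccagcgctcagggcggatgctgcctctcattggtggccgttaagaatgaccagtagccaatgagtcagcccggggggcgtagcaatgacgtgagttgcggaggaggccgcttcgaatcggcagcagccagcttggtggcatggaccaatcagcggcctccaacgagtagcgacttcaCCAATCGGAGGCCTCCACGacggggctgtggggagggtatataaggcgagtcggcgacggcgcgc
Creld2: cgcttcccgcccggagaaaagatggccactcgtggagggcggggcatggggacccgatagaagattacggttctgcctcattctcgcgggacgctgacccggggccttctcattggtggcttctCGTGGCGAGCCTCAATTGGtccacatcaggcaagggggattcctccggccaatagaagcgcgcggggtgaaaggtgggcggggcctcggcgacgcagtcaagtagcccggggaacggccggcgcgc
These windows are chr1:55087898-55088147, chr2:34771840-34772089 and chr15:88819396-88819645, all on the plus strand. Over all 10455 genes, 11.4% held an E-box, 0.708% a D-box, 2.53% a ROR element, 0.574% a heat shock element and 0.182% an ER stress element.

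The genotype label could not be checked with the array. The Sirt1 probe set read 8.50 to 8.94 (median 8.76) on the 18 knockout arrays and 8.40 to 8.96 (median 8.75) on the 18 WT arrays of the same cohort, and whether its probes lie in the deleted part is not given. Replicates of a time correlated at r = 0.974 to 0.991 across genes, and 0 pairs of arrays were identical. Array brightness moved with time: the median over the tested genes was highest at ZT4 and lowest at ZT20, a range of 0.11 on the log2 scale between time means. The split of peak times is therefore also given with quantile normalization and with array medians centred.

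Some arrays stood apart. The lowest correlations lay at ZT12 and ZT16, where the median gene's SD between replicates was 0.134 and 0.159, against 0.109 to 0.124 at the other times. At ZT12, replicate 1 read 9.83 for Rgs16, a regulator of G protein signalling, where the other replicates read 6.29 and 6.13. It read 10.42 for Arrdc3, an arrestin-like protein, where they read 8.02 and 8.07. At ZT12, replicate 3 read low in markers of other liver cells: the mean over the 12 Kupffer cell markers was 7.27 there against 8.62 and 8.41 on its replicates, and over the 10 endothelial markers 8.94 against 9.72 and 9.29. Hepatocyte markers had a summed intensity of 54140 to 59620 on all 18 arrays. The 3 ZT12 arrays, at 58120 to 59620, lay above all others, which reached at most 57960. The means over 11 pancreatic and 8 muscle markers were low, at 5.46 to 6.24 on the log2 scale. In bulk liver, fewer cells of a type and less RNA per cell cannot be told apart. Total counts without the arrays that stood apart are given below, and so are counts for a list where leaving out ZT12 replicate 1 and ZT16 replicate 2 moved them by over 1.5 times.

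A 24 h cosine was called for 3089 of the 13308 genes tested, which is 23.2% (limma moderated F, Benjamini-Hochberg adjusted p under 0.05 over all genes). The test of any difference among the 6 times called 2235 genes, or 16.8%. Both tests called 1945 of them. Amplitudes, given as fitted peak minus trough, were modest for most: the median over called genes was 0.45 on the log2 scale (quartiles 0.35 and 0.63), beside 0.22 over all genes tested. An amplitude of at least 1.5-fold was reached by 930 called genes (6.99% of those tested) and of at least 2-fold by 269 (2.02%). The cosine count was 3667 without ZT12 replicate 1 and ZT16 replicate 2, and 2779 without ZT12 replicate 3.

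Fitted peaks fell at all hours, and how they divided between day and night depended on the scaling. In 4 h windows centred on ZT0, ZT4, ZT8, ZT12, ZT16 and ZT20 there were 440, 698, 924, 454, 264 and 309 called genes. With array medians centred there were 502, 461, 628, 521, 516 and 615. The dark hours held 31.8% of peaks as deposited, 45.6% after quantile normalization and 50.8% after centring. Among genes of at least 2-fold amplitude the shares were 45.4%, 51.5% and 55.2%, and the windows held 65, 42, 36, 68, 21 and 37 genes, with the largest counts around ZT0 and ZT12. A gene's own peak time moved little: the median shift under centring was 0.32 h over the 2632 genes called both ways, and 0.15 h over the 268 of at least 2-fold amplitude.

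**Figure D1:**
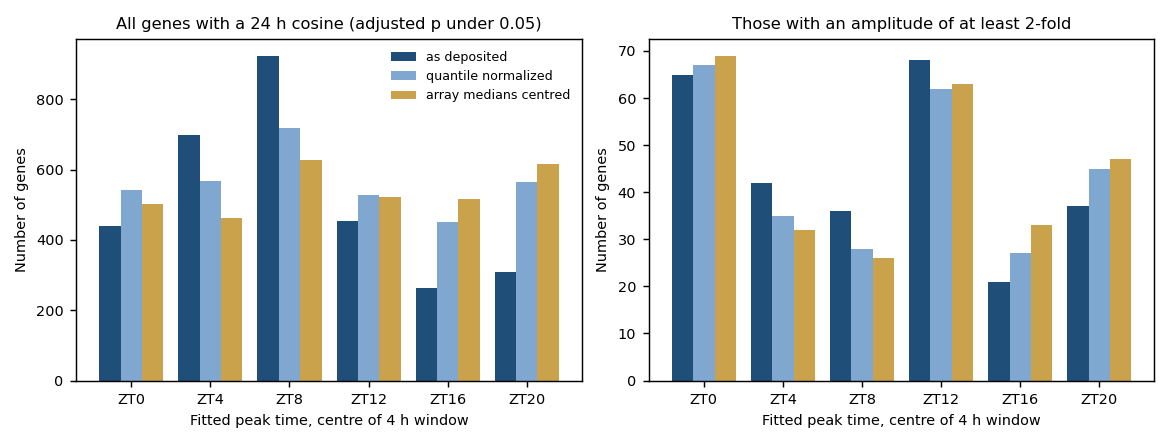
Number of genes with a called 24 h cosine (y axis) by the 4 h window of their fitted peak (x axis, window centre), for the values as deposited and under 2 other scalings; left, all called genes, right, those of at least 2-fold amplitude. The ZT8 window fell from 924 to 628 genes under centring, while ZT0 and ZT12 held the largest counts at 2-fold or more under all 3 scalings.

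Clock genes had some of the widest swings. Of the 18 genes of the core clock list 14 had a probe set with a single symbol and were tested, and 12 were called (85.7%, against the background of 23.2%), with a median amplitude of 2.40. All 4 output genes (Dbp, Tef, Hlf and Nfil3) were called. The 2 core genes not called were Rora, the ROR alpha receptor, with an amplitude of 0.03, and Csnk1e, a casein kinase that acts on PER proteins, with 0.12. All these counts were the same under both other scalings.

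The activators peaked around the end of the night. Arntl read 9.27, 9.38 and 9.45 at ZT0, 9.17, 8.32 and 8.17 at ZT4, 5.16, 5.66 and 5.45 at ZT8, 7.53, 6.63 and 6.61 at ZT12, 8.30, 9.12 and 8.27 at ZT16 and 9.12, 9.30 and 9.35 at ZT20. It was highest at ZT20 and ZT0 and lowest at ZT8, where all 3 arrays lay below every array of the other times. The fitted swing was 3.65 ± 0.40 (SE), or 12.6-fold, with its peak at ZT21.5 ± 0.42 h (limma adjusted p = 6.9e-06, n = 3 arrays per time). Npas2, the alternative partner of BMAL1, read 8.91, 9.51 and 9.05 at ZT0, 8.40, 7.69 and 7.32 at ZT4, 5.52, 5.72 and 5.75 at ZT8, 5.17, 5.35 and 5.23 at ZT12, 5.43, 5.86 and 4.86 at ZT16 and 7.26, 8.02 and 8.16 at ZT20. It was high at ZT0 and near the floor from ZT8 to ZT16, with no overlap between these times and ZT0, ZT4 or ZT20, and a swing of 4.13 ± 0.27 (17.5-fold) peaking at ZT0.1. Clock had a smaller swing of 1.34 ± 0.13 that peaked at ZT22.5.

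The repressors of the loop followed from morning to midnight. Nr1d1, which encodes REV-ERB alpha, read 8.62, 7.93 and 8.48 at ZT0, 10.99, 10.95 and 11.07 at ZT4, 10.19, 10.85 and 10.55 at ZT8, 9.23, 8.66 and 8.75 at ZT12, 7.21, 7.28 and 7.40 at ZT16 and 6.80, 6.64 and 6.86 at ZT20. It was highest at ZT4 and lowest at ZT20, the lowest ZT4 array standing 4.09 above the highest ZT20 array, and the fitted swing was 20.1-fold with the peak at ZT6.3 ± 0.18 h (limma adjusted p = 9.8e-11, n = 3 per time). Bhlhe41 (DEC2) peaked at ZT8.1 with a swing of 2.23, Nr1d2 (REV-ERB beta) at ZT9.1 with 2.57, and Cry2 at ZT10.3 with 0.85. Ciart, a repressor of the BMAL1 complex, read 5.48, 5.0 and 5.14 at ZT0, 5.34, 6.45 and 5.43 at ZT4, 9.19, 9.15 and 9.19 at ZT8, 9.03, 9.53 and 9.33 at ZT12, 7.62, 7.26 and 7.91 at ZT16 and 5.68, 5.61 and 5.49 at ZT20. Its ZT8 and ZT12 arrays lay above all others and the swing of 4.65 ± 0.30 (25-fold) was the widest of the list. Per3 (2.94, ZT11.5), Per1 (2.99, ZT12.1) and Bhlhe40 (1.07, ZT12.5) peaked with it around lights off. Cry1 was the last repressor: it read 7.84, 7.59 and 7.89 at ZT0, 6.74, 6.37 and 6.57 at ZT4, 6.73, 6.62 and 6.95 at ZT8, 7.77, 7.40 and 7.55 at ZT12, 8.03, 8.42 and 8.06 at ZT16 and 8.38, 8.49 and 8.40 at ZT20. The 3 ZT20 arrays and 1 ZT16 array were its highest, and the fitted peak lay at ZT18.3 ± 0.27 h with a swing of 1.89.

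The output factors split into the same early and late groups. Dbp, the activator of D-box genes, read 6.27, 6.15 and 6.89 at ZT0, 8.30, 9.45 and 8.96 at ZT4, 10.64, 10.74 and 10.73 at ZT8, 9.64, 10.32 and 10.04 at ZT12, 8.41, 7.69 and 8.33 at ZT16 and 6.79, 6.56 and 7.12 at ZT20. The ZT8 arrays lay above all others and the ZT0 arrays overlapped those of ZT20, with a fitted swing of 20.3-fold at ZT9.5 ± 0.22 h. Tef followed at ZT11.1 with a swing of 2.06, and Hlf moved little (0.33 at ZT12.9, limma adjusted p = 0.02), a call that was lost without ZT0 replicate 1 or ZT12 replicate 1. Nfil3, the repressor at the same motif, peaked nearly opposite Dbp, at ZT20.7, with a swing of 1.72 ± 0.19.

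**Figure D2:**
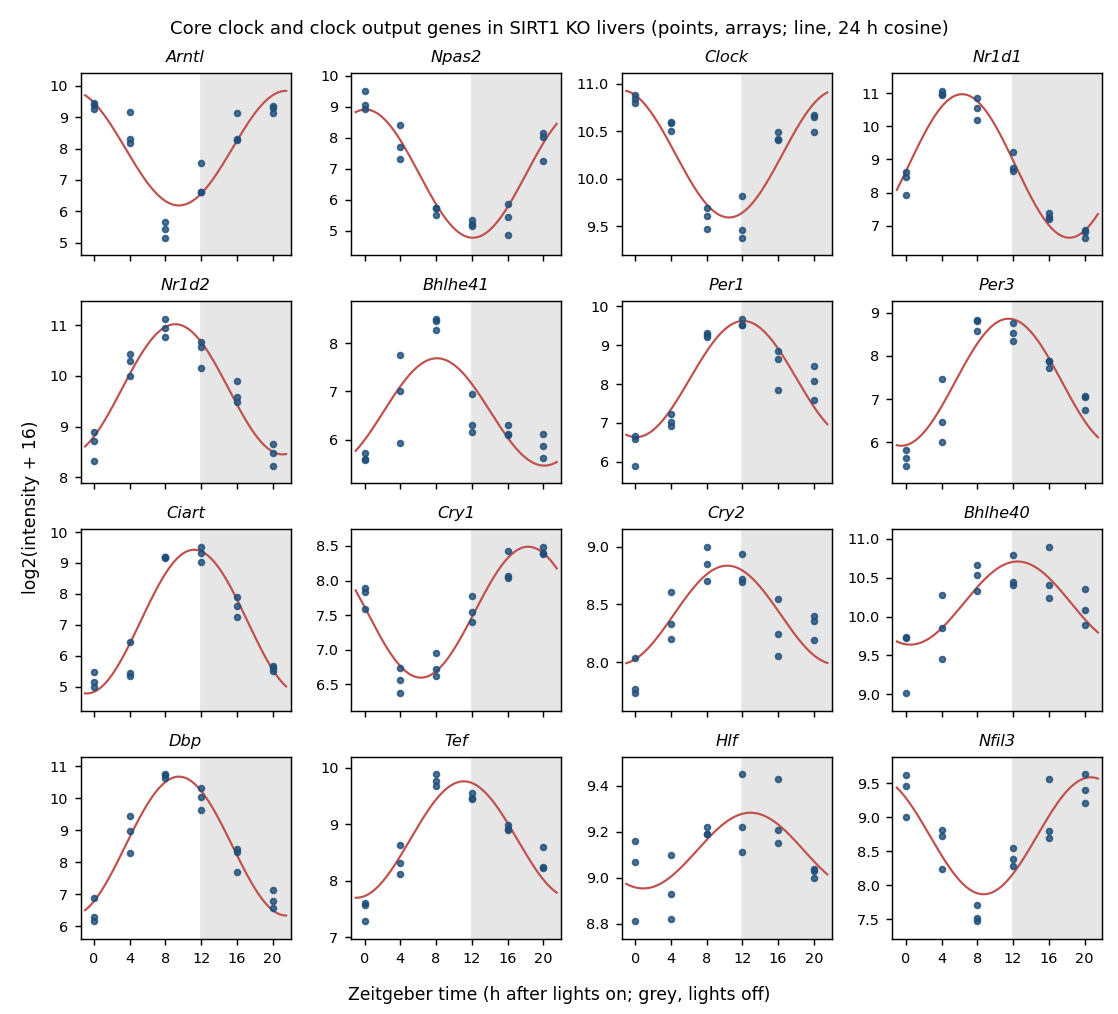
Core clock and output genes: each point is 1 of the 18 arrays, plotted as log2(intensity + 16) against zeitgeber time in hours, with the fitted 24 h cosine as a line and the dark hours in grey. Arntl, Npas2, Clock and Nfil3 were high around ZT20 to ZT0, Nr1d1 at ZT4, and Dbp, Ciart and the Per genes at ZT8 and ZT12.

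In the promoter windows, 4 of the 11 called core clock genes that had a window held an E-box: Ciart, Per1, Cry1 and Bhlhe41. Among all called genes the share with an E-box was 11% to 15.3% in each peak window, near the 11.4% of all tested genes. The ROR element was held by 5.08% of the called genes that peaked around ZT0, 1.60% around ZT4, 1.59% around ZT8, 1.94% around ZT12, 3.77% around ZT16 and 3.54% around ZT20, beside 2.53% of all tested genes. The D-box was held by 1.94% of those around ZT12 and 2.83% around ZT16, from 7 and 6 genes, and by 0.888% or less in the other windows. The ROR element and D-box counts are small, and none of these shares was tested.

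Sterol synthesis peaked in the morning. Of 19 cholesterol synthesis genes tested, 11 were called (57.9%, median amplitude of the list 0.51, beside 0.22 over all genes), 8 of them in the ZT4 window, and 11 or 10 under the other scalings. Hmgcs1, which makes HMG-CoA for the mevalonate pathway, read 11.64, 11.99 and 12.02 at ZT0, 12.15, 12.43 and 11.36 at ZT4, 11.32, 11.50 and 11.90 at ZT8, 10.39, 10.56 and 10.74 at ZT12, 10.76, 10.67 and 10.17 at ZT16 and 11.23, 11.28 and 11.30 at ZT20. The ZT12 and ZT16 arrays lay below all others, with a swing of 1.61 ± 0.17 (3.06-fold) and a peak at ZT2.6 ± 0.40 h. Mvk (mevalonate kinase, 0.94), Nsdhl (0.69) and Cyp51 (0.68), which act further along the path to cholesterol, peaked between ZT4.0 and ZT5.4. Insig1, which holds the SREBP activators of these genes in the endoplasmic reticulum, peaked at night, at ZT16.2 ± 0.54 h, with a swing of 0.54.

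Genes of bile acid synthesis and export were called in 11 of 18 cases (61.1%, median amplitude 0.54), 6 of them in the ZT4 window (4 of 10 under centring and 6 of 11 under quantile normalization). Hsd3b7, an enzyme of bile acid synthesis, read 11.58, 11.63 and 11.71 at ZT0, 11.90, 11.72 and 11.84 at ZT4, 11.21, 11.53 and 11.37 at ZT8, 10.69, 11.03 and 10.70 at ZT12, 10.89, 10.97 and 10.99 at ZT16 and 11.33, 11.24 and 11.36 at ZT20. Its ZT4 arrays lay above all others and its ZT12 arrays overlapped those of ZT16, with a swing of 0.99 ± 0.08 peaking at ZT2.2. Cyp8b1, which sets the share of cholic acid, swung by 1.24 with its peak at ZT0.6, and Abcb11, the bile salt export pump, by 0.55 at ZT1.9. The sterol exporters stood apart from these. Abcg5 peaked at ZT10.7 with a swing of 1.51 ± 0.13 (2.85-fold), and its partner Abcg8 at ZT9.2 with 1.70 ± 0.18. The Abcg5 arrays read 9.30, 9.52 and 9.63 at ZT0, 10.06, 10.03 and 10.19 at ZT4, 10.72, 10.63 and 10.78 at ZT8, 10.58, 11.26 and 11.19 at ZT12, 10.07, 10.65 and 10.05 at ZT16 and 9.57, 9.63 and 9.77 at ZT20. ZT0 and ZT20 overlapped at the low end, and ZT8 and ZT12 at the high end. Cyp7a1, the rate-limiting enzyme of the pathway, was tested and not called.

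Growth hormone targets and sex-biased liver genes were called in 7 of 18 cases (38.9%), 5 in the ZT0 window and 2 at ZT4. With centring there were 6, 5 of them around ZT0, and with quantile normalization 7, with 5 there. Without ZT12 replicate 1 and ZT16 replicate 2 there were 5, 4 around ZT0 and 1 around ZT4. Serpina12, the adipokine vaspin, had the widest swing of them at 2.82 ± 0.54, with its peak at ZT2.0. It was low on the ZT12 arrays (6.67, 4.24 and 4.75). Stat5b and Stat5a, the transcription factors that growth hormone activates, peaked at ZT1.2 and ZT0.7 with swings of 0.61 and 0.63, and Hsd3b5, a steroid dehydrogenase of male liver, at ZT3.0 with 1.28. Proteasome subunits were called in 6 of 32 cases (18.8%, below the background of 23.2%), 4 in the ZT0 window (2 of 7 without ZT12 replicate 1 and ZT16 replicate 2), with swings of at most 0.45 (Psmd11).

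Autophagy and lysosome genes were called in 13 of 24 cases (54.2%), 6 of them in the ZT4 window, which held 22.6% of all called genes. Under centring 9 were called and under quantile normalization 11, each with 3 in that window. Gabarapl1, a coat protein of autophagosomes, peaked at ZT5.1 with a swing of 0.70 ± 0.09. Ulk1, the kinase that starts autophagy, peaked at ZT7.8 with 0.97 ± 0.10 and read 9.05 on average at ZT0, 9.87 at ZT8 and 9.0 at ZT16. Bnip3, a receptor for the removal of mitochondria, was later, at ZT12.3 with 0.87.

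Many genes of RNA processing and chromatin peaked in the middle of the day. Splicing factors were called in 15 of 26 cases (57.7%, median amplitude 0.31), 10 of them around ZT8, the window that held 29.9% of all called genes, and in 12 cases with 6 around ZT8 under both other scalings. Hnrnpl, an RNA-binding splicing regulator, read 9.60, 9.72 and 9.66 at ZT0, 9.96, 9.91 and 10.04 at ZT4, 9.99, 9.95 and 10.12 at ZT8, 9.68, 9.93 and 10.04 at ZT12, 9.34, 9.36 and 9.42 at ZT16 and 9.45, 9.49 and 9.61 at ZT20. The ZT16 arrays lay below all others, and the swing was 0.65 ± 0.08 at ZT6.7. Srsf5 swung by 0.70 at ZT6.6, and Tra2a went the other way, with 0.93 ± 0.12 at ZT20.2. Of 18 histone and chromatin genes 8 were called (44.4%), 5 around ZT8 (4 of 7 under centring and 5 of 8 under quantile normalization), among them the DNA demethylase Tet3 (0.64, ZT8.2) and the histone methyltransferase Kmt2d (0.49, ZT9.0). The linker histone H1f2 peaked at ZT20.1 with 1.77 ± 0.29 and Dnmt3b, a DNA methyltransferase, at ZT21.7 with 0.84. Cirbp, a cold-inducible RNA-binding protein, peaked at ZT6.6 with 0.94 ± 0.14.

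Several genes of fuel release peaked around the end of the day. Fatty acid oxidation was called in 7 of 26 cases (26.9%, near the background of 23.2%). Cpt1a, which admits fatty acids to mitochondria, peaked at ZT9.5 with a swing of 0.67 ± 0.08, and Ppara, the receptor that drives these genes, at ZT9.0 with 0.63. Pdk4, which blocks pyruvate oxidation, peaked at ZT22.1 with 1.96 ± 0.23. Gluconeogenic genes were called in 7 of 15 cases (46.7%), 5 around ZT12 and 2 around ZT16, and in 8 and 9 under the other scalings. Pck1 peaked at ZT10.2 with 0.63 ± 0.14, Foxo1, a transcription factor that insulin restrains, at ZT10.8 with 0.68, and Slc37a4, which carries glucose-6-phosphate into the endoplasmic reticulum, at ZT12.3 with 0.67. A second Foxo1 probe set swung by 0.31 at ZT10.7 and just missed the threshold (limma adjusted p = 0.054). Sik1, a kinase that restrains the same programme, peaked at ZT14.3 with 1.34 ± 0.24. G6pc, Fbp1, Pcx and Ppargc1a of this list were tested and not called by the cosine.

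Glycogen genes peaked at different hours. Gys2, the liver glycogen synthase, read 10.56, 10.40 and 10.58 at ZT0, 10.55, 10.98 and 10.92 at ZT4, 11.82, 11.81 and 12.04 at ZT8, 11.87, 11.79 and 11.94 at ZT12, 11.52, 11.63 and 11.79 at ZT16 and 11.07, 10.97 and 10.93 at ZT20. The ZT8, ZT12 and ZT16 arrays all lay above the others, with a swing of 1.48 ± 0.11 (2.79-fold) at ZT11.9 ± 0.28 h. Ugp2, which makes UDP-glucose, peaked at ZT8.3 with 0.65. Ppp1r3c, a targeting subunit that brings phosphatase 1 to glycogen, read 11.30, 11.47 and 11.56 at ZT0, 10.54, 10.21 and 10.19 at ZT4, 9.09, 9.47 and 8.95 at ZT8, 9.74, 8.51 and 8.64 at ZT12, 10.08, 10.33 and 10.32 at ZT16 and 10.60, 11.12 and 11.42 at ZT20. It was highest at ZT0 and ZT20 and lowest at ZT8 and ZT12, which overlapped, with a swing of 2.53 ± 0.20 at ZT22.4. Ppp1r3b, a second such subunit, peaked at ZT18.7 with 1.77 ± 0.29. In all, 5 of the 16 genes of glycolysis and glycogen were called (31.2%, against the background of 23.2%).

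The called genes of fatty acid synthesis peaked mostly around and after lights off. They were 7 of the 19 tested (36.8%, against the background of 23.2%), 4 around ZT12 and 2 around ZT16, as under quantile normalization. As deposited, these windows held 14.7% and 8.55% of all called genes. Under centring 9 were called, 4 in each of these windows. Without ZT12 replicate 1 and ZT16 replicate 2, 6 were called, 3 around ZT12 and 1 around ZT16. Srebf1, the lipogenic transcription factor, read 9.80, 9.72 and 9.99 at ZT0, 9.90, 10.30 and 9.41 at ZT4, 10.71, 10.55 and 10.50 at ZT8, 10.92, 10.59 and 10.61 at ZT12, 10.27, 10.39 and 10.64 at ZT16 and 9.84, 9.93 and 10.17 at ZT20. Its ZT8, ZT12 and ZT16 arrays overlapped at the top, and the swing was 0.97 ± 0.13 at ZT11.9. Thrsp, a lipogenic protein responsive to thyroid hormone, peaked at ZT14.7 with 1.70 ± 0.30, and Fads2, a fatty acid desaturase, at ZT12.2 with 0.49 ± 0.05. Elovl3, an elongase of very long chain fatty acids, peaked at ZT23.3 with 2.39 ± 0.24 and had its lowest mean at ZT12, where 1 array overlapped those of ZT8. Fasn, Acly, Scd1, Acacb, Elovl6, Me1 and Gpam were among the members tested and not called.

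Phospholipid and triglyceride genes were called in 11 of 18 cases (61.1%), 5 around ZT12 under all 3 scalings. Lpin1, a phosphatidate phosphatase that is also a coactivator, read 8.63, 7.98 and 8.59 at ZT0, 9.05, 9.66 and 8.98 at ZT4, 10.97, 10.38 and 10.33 at ZT8, 11.58, 11.32 and 11.26 at ZT12, 10.33, 9.25 and 10.18 at ZT16 and 9.45, 9.40 and 9.31 at ZT20. Its ZT12 arrays lay above all others and its swing was 2.62 ± 0.25 (6.16-fold) at ZT11.6. Gpat4 (0.82) and Dgat2 (0.43), an acyltransferase at the start and one at the end of triglyceride synthesis, peaked at ZT13.2 and ZT11.7. Chka, the choline kinase of phosphatidylcholine synthesis, peaked at ZT21.2 with 2.35 ± 0.26 and read 9.55, 9.77 and 9.75 at ZT0, 9.02, 8.63 and 8.60 at ZT4, 7.19, 7.14 and 7.01 at ZT8, 8.62, 7.72 and 8.04 at ZT12, 8.45, 9.81 and 8.84 at ZT16 and 9.38, 9.57 and 9.66 at ZT20. Its ZT8 arrays lay below all others, and 1 ZT16 array lay above all others.

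Nucleotide genes were called in 7 of 19 cases (36.8%, against the background of 23.2%), 5 in the ZT12 window under all 3 scalings. As deposited, that window held 14.7% of all called genes. Upp2, a uridine phosphorylase of liver, peaked at ZT11.2 with a swing of 1.84 ± 0.13 (3.59-fold). Ppat, the first committed enzyme of purine synthesis, peaked at ZT10.9 with 0.80, and the purine-degrading enzymes Xdh and Uox at ZT11.5 and ZT10.9 with 0.56 and 0.55. Mthfd1l, a mitochondrial enzyme of one-carbon metabolism, peaked at ZT12.5 with 2.19 ± 0.31, although its list was called in 3 of 15 cases (20.0%).

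Genes that respond to glucocorticoid or are induced early were called in 13 of 19 cases (68.4%, median amplitude 0.83), 4 around ZT8, 6 around ZT12 and 3 around ZT16. Under centring 12 were called, with 3, 5 and 4 in these windows, and under quantile normalization 14, with 4, 5 and 5. Fkbp5, a chaperone of the glucocorticoid receptor, read 6.76, 6.46 and 6.74 at ZT0, 6.47, 6.76 and 7.10 at ZT4, 6.91, 6.63 and 6.62 at ZT8, 8.41, 8.42 and 7.88 at ZT12, 7.94, 7.8 and 7.65 at ZT16 and 7.02, 7.04 and 6.83 at ZT20. The ZT12 and ZT16 arrays lay above all others, with a swing of 1.5 ± 0.22 at ZT13.9. Tsc22d3, which encodes GILZ, peaked later, at ZT16.9 with 1.2 ± 0.21, and Klf9, a zinc-finger factor, earlier, at ZT6.1 with 0.60. Per1 and Lpin1 of this list also belong to the clock and lipid lists above.

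The called genes of drug metabolism peaked mostly around lights off and in the first part of the night. Xenobiotic genes were called in 15 of 28 cases (53.6%, against the background of 23.2%), 5 around ZT12 and 5 around ZT16. Under both other scalings there were 4 and 6. Nr1i3, Cyp2b10, Cyp2c29, Cyp2e1, Cyp3a11, Ephx1 and Gstm1 were among the members tested and not called. Alas1, the rate-limiting enzyme of haem synthesis, read 8.87, 9.84 and 10.02 at ZT0, 8.91, 10.87 and 9.52 at ZT4, 11.88, 11.50 and 11.72 at ZT8, 12.02, 11.55 and 12.09 at ZT12, 11.80, 11.72 and 12.09 at ZT16 and 11.07, 11.07 and 11.26 at ZT20. The ZT8, ZT12 and ZT16 arrays lay above all others, with a swing of 2.59 ± 0.33 (6.01-fold) at ZT13.3. Cyp2a4, a steroid hydroxylase, swung by 2.20 ± 0.24 at ZT13.3, and Nr1i2, the xenobiotic receptor PXR, by 0.65 at ZT14.4. Iron and haem genes were called in 9 of 18 cases (50%) with no common hour: 2 peaked around ZT0, 3 around ZT8, 3 around ZT12 and 1 around ZT16. Hjv, the hemojuvelin coreceptor, swung by 0.58 at ZT23.1 and Smad7, an inhibitor of the same signalling route, by 0.65 at ZT8.0. Hamp, the iron hormone hepcidin, swung by 0.40 at ZT11.1, and the iron importer Tfrc by 0.94 at ZT14.7. Hamp2 swung by 2.16 ± 0.49 at ZT13.4, but Hamp and Hamp2 are close copies whose probes may share signal.

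NAD metabolism and sirtuin genes were called in 10 of 22 cases (45.5%), the widest in the evening. Nampt, the rate-limiting enzyme of NAD+ salvage and a known clock target, read 9.30, 9.13 and 9.37 at ZT0, 8.72, 9.56 and 9.10 at ZT4, 10.24, 9.77 and 10.07 at ZT8, 10.77, 10.36 and 10.75 at ZT12, 10.38, 10.57 and 10.41 at ZT16 and 10.10, 9.89 and 9.95 at ZT20. The ZT12 and ZT16 arrays overlapped at the top, and the swing was 1.55 ± 0.14 (2.94-fold) at ZT13.9 ± 0.34 h. Nmrk1, a nicotinamide riboside kinase, peaked at ZT12.9 with 1.45 ± 0.13. Nadsyn1, the last enzyme of the route from nicotinic acid, peaked at ZT8.3 with 0.56, and the mitochondrial sirtuins Sirt5 and Sirt3 at ZT5.9 and ZT9.9 with 0.51 and 0.37. Sirt1 itself had a fitted swing of 0.22 and missed the threshold (limma adjusted p = 0.061), as did Sirt6 and Sirt7.

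Heat shock genes and chaperones peaked in the middle and second part of the night. Of 18 heat shock genes tested, 13 were called (72.2%, median amplitude 0.56), 6 around ZT16 and 7 around ZT20, and 15 under each of the other scalings. Dnajb11 counts here and in the endoplasmic reticulum list below. Without ZT12 replicate 1 and ZT16 replicate 2, 13 were called, 2 around ZT16 and 11 around ZT20. Hsph1, a large partner of HSP70, read 8.56, 9.03 and 8.81 at ZT0, 7.85, 8.07 and 8.14 at ZT4, 8.05, 7.58 and 7.44 at ZT8, 9.19, 8.63 and 8.50 at ZT12, 9.49, 9.89 and 9.81 at ZT16 and 8.95, 9.05 and 9.07 at ZT20. The ZT16 arrays lay above all others and ZT4 and ZT8 overlapped at the bottom, with a swing of 1.76 ± 0.20 (3.39-fold) at ZT17.8 ± 0.43 h (limma adjusted p = 9.9e-06, n = 3 per time). Hspa1b, an inducible HSP70, swung by 1.78 ± 0.39 at ZT17.9. The value was 1.53 without those 2 arrays. Hsp90aa1 peaked at ZT19.3 with 1.26 ± 0.13, and the HSP90 cochaperones Stip1 and Fkbp4 at ZT18.6 and ZT19.1 with 0.78 and 0.69. Hspb1, a small heat shock protein named after its value was seen, peaked at ZT21.2 with 1.74 ± 0.24. A heat shock element was held by 3 of the 11 called members with a promoter window (Hspe1, shown above, Hsph1 and Chordc1), beside 0.574% of all genes. The share among uncalled members was not counted, so this comparison cannot separate the list from its peak time. By window of all called genes the share was 2.36% around ZT16 (5 genes, Hspe1 and Hsph1 among them) and 1.41% around ZT0 (5 genes). It was 0.394% around ZT20 (1 gene) and 0.178% to 0.556% in the others. The numbers are small and no test was run.

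Folding and stress genes of the endoplasmic reticulum peaked mostly late in the night. Of 30 genes 16 were called (53.3%), 11 of them around ZT20. Under centring 18 were called and under quantile normalization 21, with 14 and 16 around ZT20. Creld2, a stress-induced folding factor, read 10.14, 9.47 and 9.68 at ZT0, 8.91, 8.98 and 9.60 at ZT4, 8.80, 8.29 and 8.50 at ZT8, 9.26, 9.07 and 8.88 at ZT12, 9.82, 10.29 and 10.42 at ZT16 and 9.71, 9.90 and 9.84 at ZT20. ZT16, ZT20 and ZT0 overlapped at the top, ZT8 was lowest, and the swing was 1.44 ± 0.20 (2.71-fold) at ZT19.5 ± 0.53 h. Hspa5, which encodes the central chaperone BiP, swung by 0.60 ± 0.07 at ZT20.2, Dnajb11, its cochaperone, by 0.57 at ZT20.7, and Sdf2l1, a factor of the same complex, by 1.14 at ZT21.6. Herpud1, a part of the degradation machinery, peaked at ZT11.4 with 0.73 ± 0.09. Xbp1, Atf4 and Ddit3, transcription factors of the stress response, were not called. The ER stress element was found in 7 of the 13 called members with a window: Calr, Creld2, Dnajc3, Ero1b, Hspa5, Pdia6 and Syvn1. In all tested genes it was found in 19 of 10455. Members of this list that were not called were not counted, so the share cannot be tied to peak time.

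Cell cycle genes were called in 4 of 22 cases (18.2%, beside the background of 23.2%), but 2 of them swung widely. Wee1, a kinase that holds back mitosis and a known clock target, peaked at ZT12.1 with 2.97 ± 0.38 (7.86-fold). Cdkn1a, the cell cycle inhibitor p21, peaked later, at ZT21.3 with 2.49 ± 0.42, and read 7.95, 9.11 and 8.51 at ZT0, 7.89, 6.58 and 6.80 at ZT4, 5.53, 4.85 and 5.42 at ZT8, 7.18, 7.19 and 6.08 at ZT12, 6.77, 8.18 and 7.09 at ZT16 and 7.68, 7.93 and 7.8 at ZT20. Its ZT8 arrays lay below all others. Ccnd1 and Ccne1, cyclins of the first growth phase, peaked at ZT12.3 and ZT10.4 with 0.77 and 0.61.

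Signalling and plasma protein genes showed no common hour. Insulin and mTOR genes were called in 9 of 23 cases (39.1%), from Irs1 at ZT2.7 (0.63) through Mtor at ZT8.3 (0.54), Insr at ZT8.9 (0.42) and Foxo3 at ZT10.4 (0.97 ± 0.10) to Ppp1r3b. Amino acid breakdown genes were called in 14 of 31 cases (45.2%), with Amt of the glycine cleavage system at ZT3.2 (0.91), Asl of the urea cycle at ZT14.8 (0.55) and Ddc, an aromatic amino acid decarboxylase, at ZT21.1 (1.31 ± 0.23). Acute phase and complement genes were called in 9 of 32 cases (28.1%, near the background of 23.2%, and 6 under centring), the widest being the interleukin-6 receptor Il6ra (1.00, ZT11.7) and the lectin Mbl1 (0.74, ZT23.7). Apolipoprotein and lipoprotein genes were called in 7 of 21 cases (33.3%), and of these Apoa5 (0.33, ZT12.4) lost its call without any 1 of 9 arrays and Apoa1 (0.13, ZT4.4) without any 1 of 12. Antioxidant genes were called in 5 of 17 cases (29.4%, near the background, and 4 under both other scalings), led by the quinone reductase Nqo1 (0.57, ZT11.9) and Gclc of glutathione synthesis (0.56, ZT1.1).

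Genes of large complexes were seldom called. Cytosolic ribosomal proteins were called in 2 of 47 cases (4.26%, median amplitude 0.11), respiratory chain genes in 3 of 56 (5.36%, 0.12), mitochondrial ribosomal proteins in 2 of 32 (6.25%, 0.13) and aminoacyl-tRNA synthetases in 1 of 18 (5.56%, 0.21), all below the background of 23.2%. Under centring the counts were 2, 6, 6 and 4, and without ZT12 replicate 1 and ZT16 replicate 2 they were 1, 3, 3 and 4. The 1 synthetase was Tars, with a swing of 0.98 ± 0.12 at ZT22.9. Interferon-stimulated genes were called in 1 of 20 cases, or 3 under centring, under quantile normalization or without those arrays. Ribosome biogenesis was called in 7 of 39 cases (17.9%), with peaks from ZT5.3 (Ubtf) to ZT18.8 (Nop16). Vesicle traffic was called in 7 of 30 cases (23.3%), but in 10 under centring and 13 under quantile normalization, 6 and 7 of them around ZT20.

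**Figure D3:**
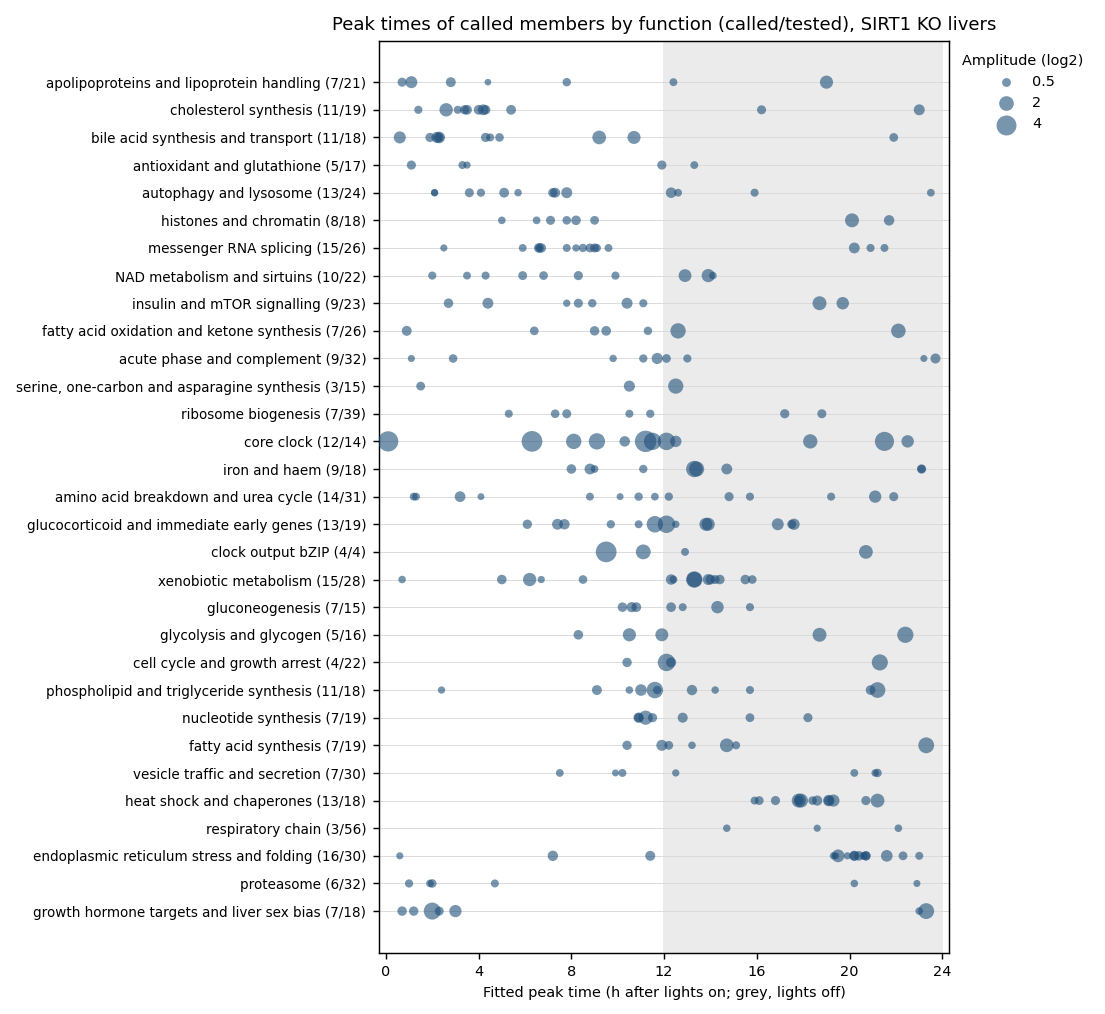
Fitted peak time in hours (x axis) of every called member of the function lists with 3 or more called members (rows, with called over tested genes in brackets), ordered by mean peak time from ZT2 at the top; point area rises with amplitude and dark hours are grey. Most called cholesterol and bile acid genes lie before ZT6, 10 of the 15 splicing genes in the ZT8 window, all 7 gluconeogenic genes in the ZT12 and ZT16 windows, and all 13 heat shock genes in the ZT16 and ZT20 windows.

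**Figure D4:**
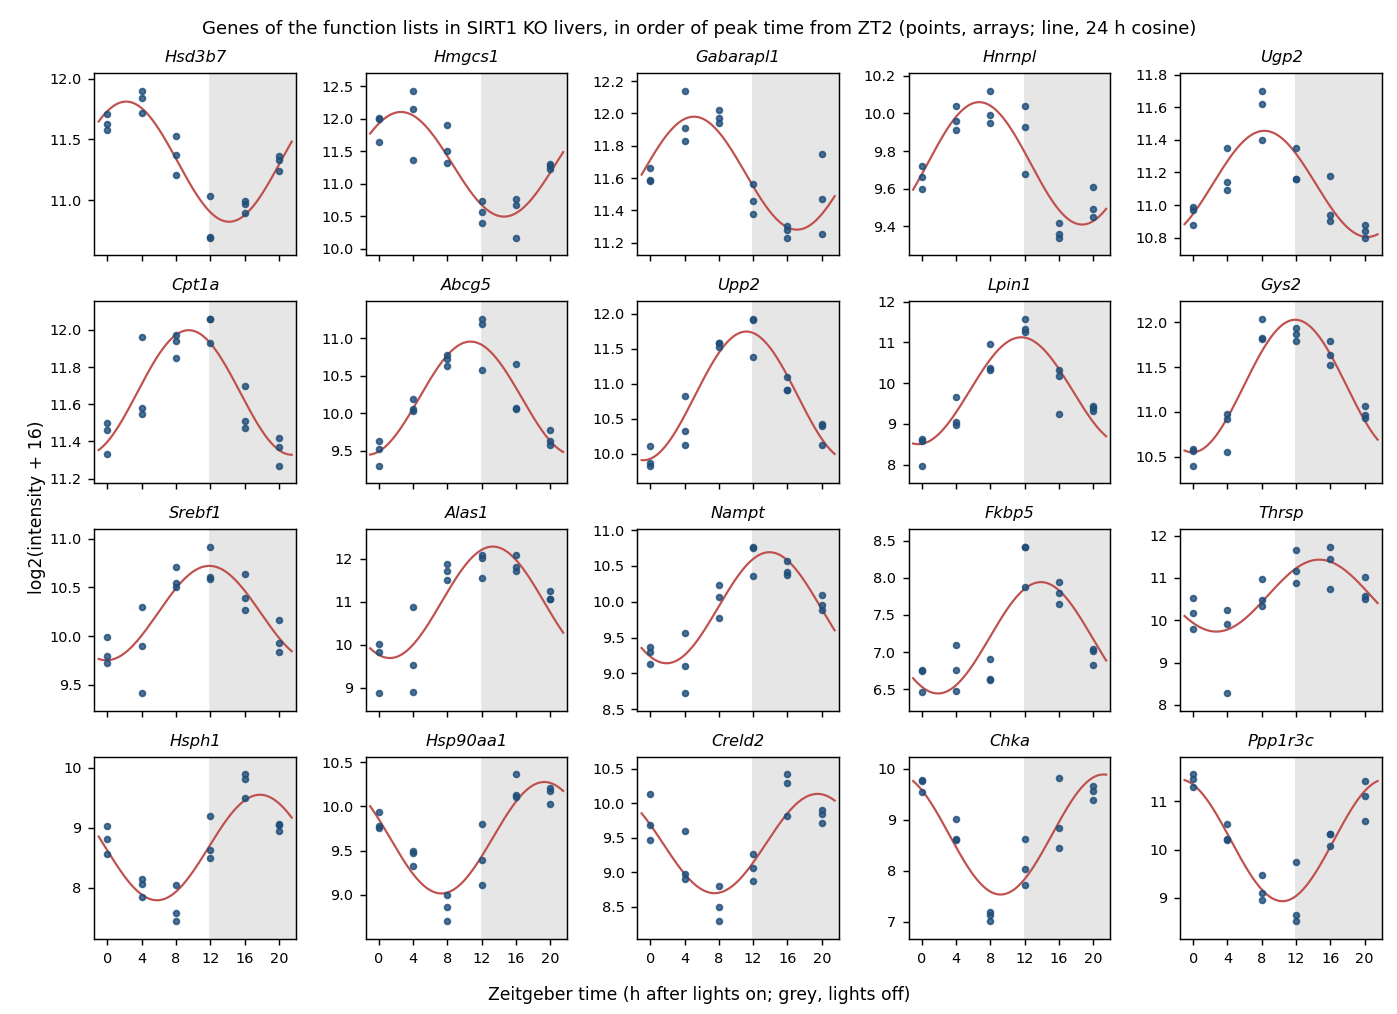
Genes of the function lists in order of fitted peak, from Hsd3b7 at ZT2.2 to Ppp1r3c at ZT22.4: each point is 1 array, as log2(intensity + 16) against zeitgeber time in hours, with the fitted cosine as a line and the dark hours in grey. The 3 arrays of a time lie close for Gys2 and Hsd3b7, and wide apart for Thrsp at ZT4 and Chka at ZT16.

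The widest swing of all was that of Rgs16, 4.78 ± 0.76 (27.4-fold) at ZT7.9, which read 5.78, 5.78 and 5.37 at ZT0, 7.08, 8.40 and 8.79 at ZT4, 11.42, 11.60 and 10.89 at ZT8, 9.83, 6.29 and 6.13 at ZT12, 6.00, 5.86 and 6.25 at ZT16 and 6.11, 6.05 and 6.00 at ZT20. The ZT8 arrays lay above all others, and ZT12 replicate 1 lay between them and its own replicates. Without that array the swing was 4.63. Around ZT0 the widest after Npas2 were Serpina12, Ppp1r3c, Elovl3 and the water channel Aqp8 (2.34 ± 0.40, ZT0.7). Around ZT4 they were Arrdc3 (2.55 ± 0.41, ZT4.7), the transcription factor Rfx4 (2.28 ± 0.17, ZT2.1), the muscle LIM protein Csrp3 (2.07 ± 0.23, ZT2.9), Rarres1, a retinoid-induced gene (1.82 ± 0.38, ZT2.2), and the microRNA locus Mir1933 (1.69 ± 0.28, ZT5.0). Around ZT8, after the clock genes, stood Cyp2g1 (2.41 ± 0.26, ZT9.1).

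Around ZT12 the widest besides Ciart, Per1 and Wee1 were the deubiquitinase Usp2 (3.42 ± 0.41, ZT12.7) and the lysolipid transporter Mfsd2a (3.16 ± 0.24, ZT12.9). Around ZT16 they were Slc16a5, a monocarboxylate transporter (1.86 ± 0.27, ZT14.7), Hspa1b, Hsph1, Thrsp and the complement-like gene C4a (1.51 ± 0.25, ZT14.9). C4a has a close copy, C4b, so that its signal may be shared. Around ZT20 they were Arntl, the tubulin Tubb2a (2.75 ± 0.27, ZT21.5), Cdkn1a, Chka and Slc45a3 (1.94 ± 0.31, ZT20.5).

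Changes between neighbouring times were called for 798 genes (6.0%), with 1 correction over all genes and all 6 steps, and gathered between ZT4 and ZT12. From ZT0 to ZT4, 121 genes rose (0.909%) and 28 fell (0.21%). From ZT4 to ZT8, 140 rose (1.05%) and 161 fell (1.21%), and from ZT8 to ZT12, 141 rose (1.06%) and 171 fell (1.28%). The night had fewer: 52 rises (0.391%) and 120 falls (0.902%) from ZT12 to ZT16, 45 (0.338%) and 50 (0.376%) from ZT16 to ZT20, and 38 (0.286%) and 36 (0.271%) from ZT20 to ZT0. The balance of rises and falls moved with scaling. Under centring ZT0 to ZT4 had 81 rises and 71 falls, ZT4 to ZT8 had 239 and 145, and ZT16 to ZT20 had 90 and 41. The 798 became 1363 without ZT12 replicate 1, 499 without ZT8 replicate 1 and 401 without ZT8 replicate 3.

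**Figure D5:**
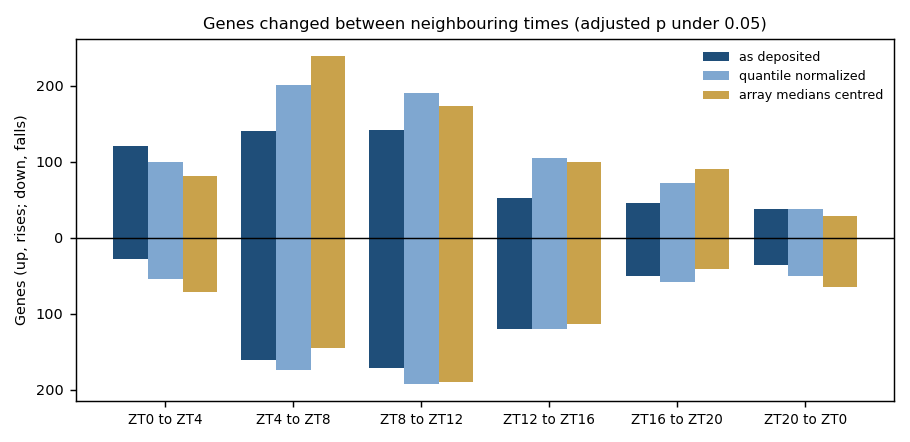
Genes that rose (upward bars) or fell (downward bars) between neighbouring times at an adjusted p under 0.05, for the values as deposited and under 2 other scalings. The steps from ZT4 to ZT8 and ZT8 to ZT12 hold the most changes under all 3, and the balance of rises to falls differs between them.

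Clock genes took some of the steepest single steps. Nr1d1 rose by 2.66 ± 0.17 and Dbp by 2.46 ± 0.26 from ZT0 to ZT4, together with Clec2h, a C-type lectin (2.55 ± 0.53). Hspa1b, Ddit4, an inhibitor of mTOR, and Npas2 fell in the same step, by 1.56, 1.36 and 1.35. Between ZT4 and ZT8, Usp2 rose by 3.51 ± 0.21 (11.4-fold) and Ciart by 3.44 ± 0.23, while Arntl fell by 3.13 ± 0.26 and Dhrs9, a retinol dehydrogenase, fell by 1.98. Between ZT8 and ZT12 Rgs16 fell by 3.89 ± 0.63, and Zbtb16 (PLZF, a glucocorticoid-responsive factor) rose by 1.76 and Ppp1r3b by 1.75. After dark Tubb2a rose by 1.53 and Elovl3 by 1.52 from ZT12 to ZT16, and Npas2 by 2.43 ± 0.27 from ZT16 to ZT20. At the end of the night Per1 fell by 1.67, Wee1 by 1.56 and Alas1 by 1.55, while Tsc22d1 rose by 1.45 and Lgr5, a receptor of the Wnt pathway, by 1.41. A second Tsc22d1 probe set had an amplitude of 0.19 and was not called.

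A 12 h component beside the 24 h one was called for 42 genes (0.316%, limma moderated F), and 1349 reached an unadjusted p under 0.05. The widest outside predicted genes was Usp2, a deubiquitinase, which read 7.44, 7.64 and 8.10 at ZT0, 6.61, 7.53 and 7.19 at ZT4, 10.58, 10.57 and 10.71 at ZT8, 10.62, 10.75 and 10.49 at ZT12, 9.85, 9.33 and 10.15 at ZT16 and 8.91, 9.02 and 8.99 at ZT20. It stood high at ZT8 and ZT12 and lowest at ZT4, where 1 array overlapped those of ZT0, and its 12 h amplitude was 1.57 (adjusted p = 0.014). Arntl (1.43, adjusted p = 0.04) and Wee1 (1.40, adjusted p = 0.03) likewise departed from a plain cosine. So did Ass1 of the urea cycle (1.34), Ddit4 (1.31) and Abtb2, an adaptor of ubiquitin ligases (1.23). The count depended on single arrays: it was 140 without ZT12 replicate 1 and 4 without ZT8 replicate 3. It was 10 and 16 without ZT0 replicate 2 or 3, 7 and 23 without ZT8 replicate 1 or 2, 23 without ZT12 replicate 2, and 9, 8 and 13 without ZT20 replicate 1, 2 or 3.

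The test among times called 290 genes that the cosine test did not. The widest were Onecut1, a liver transcription factor, Cyp17a1, a steroid 17-hydroxylase, Mmd2, Mt1, a metallothionein, Ighm and Noct, a clock-linked phosphatase also called nocturnin. Mt1 read 7.31, 7.63 and 7.46 at ZT0, 7.86, 7.95 and 8.55 at ZT4, 7.42, 7.73 and 8.34 at ZT8, 7.79, 10.85 and 10.04 at ZT12, 7.49, 8.42 and 8.11 at ZT16 and 7.47, 7.20 and 7.55 at ZT20. It was high on ZT12 replicates 2 and 3 alone, and without ZT12 replicate 1 its cosine was called (adjusted p = 0.028, 0.16 without ZT12 replicate 3). Cyp17a1 read 8.38, 8.53 and 8.47 at ZT0, 9.09, 8.30 and 7.91 at ZT4, 7.43, 8.36 and 7.90 at ZT8, 8.42, 11.10 and 10.39 at ZT12, 8.50, 9.74 and 8.20 at ZT16 and 7.5, 7.51 and 7.62 at ZT20, the same 2 arrays of ZT12 standing highest. Ighm, the heavy chain of IgM made by B cells, was high on 2 of the 3 ZT4 arrays (11.01 and 11.01, against 8.92 on the other). Ighm has 4 other probe sets, and for 1 of them the cosine was called (1.96, ZT1.8, limma adjusted p = 0.011). Noct had its lowest mean at ZT20 (8.93, 8.66 and 8.33), which overlapped single arrays of ZT4 and ZT8.

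Most markers of each cell type, hepatocytes included, were not called, beside the background of 23.2% of all genes tested. The shares called of stellate cell and bile duct markers lay above that background and those of the other types below it, from few genes each. The cosine was called for 2 of 9 hepatocyte markers (22.2%, or 1 without ZT12 replicate 1 and ZT16 replicate 2), 1 of 12 Kupffer cell markers (Lyz2), 3 of 10 stellate cell markers (Dcn, Pdgfrb and Lrat, or 5 without those arrays), 1 of 10 endothelial markers (Clec4g), 1 of 5 lymphocyte markers (Cd4) and 1 of 3 bile duct markers (Sox9). Of the neutrophil, red blood cell, pancreatic and muscle markers tested, 0 of 8 were called. Cd4 read 6.54, 6.42 and 6.11 at ZT0, 6.33, 6.20 and 6.24 at ZT4, 5.74, 5.16 and 5.66 at ZT8, 5.37, 5.15 and 4.86 at ZT12, 5.76, 5.27 and 5.58 at ZT16 and 5.59, 5.97 and 6.08 at ZT20, high at ZT0 and ZT4, with a swing of 1.2 ± 0.15 at ZT0.7. This signal was weak: the Cd4 mean over the knockout arrays was 5.78. The filter cut, set on means over all 72 arrays, was 6.005. The other lymphocyte markers tested were not called, so the Cd4 swing does not describe lymphocytes in general. Dcn (0.43) and Clec4g (0.58) had their lowest means at ZT12. Without ZT12 replicate 3, the array low in Kupffer and endothelial markers, Dcn swung by 0.32 (adjusted p = 0.05) and Clec4g by 0.40 (adjusted p = 0.041). Clec4g lost its call without ZT12 replicate 2, and Dcn without ZT12 replicate 2 or 3. Without ZT12 replicate 1 and ZT16 replicate 2, 7 of the 10 endothelial markers were called, 6 of them around ZT0. The part of cell composition in the results above was not tested.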

How the data were processed

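Total RNA from liver was hybridised to Affymetrix mouse gene arrays. The authors' deposited values are linear intensity values per probe set, made with Affymetrix Expression Console 1.1.1 and PLIER 2.0 per the submitters' processing notes. The sources used here do not give the normalization options or the genome build of the probe sets. Values were taken as log2(intensity + 16), and no further scaling was applied.

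The table held 41345 probe sets: 23521 could be named by a single symbol, 1814 matched more than 1 and 16010 had no symbol. The probe set of highest mean over all 72 arrays stood for a gene, and the lowest 40% of genes by that mean were left out, so that 13308 of 22180 genes were tested. Groups of 3 arrays were taken from the sample titles. Within the 18 knockout arrays limma 3.58.1 (R 4.3.3) gave moderated F tests of a 24 h cosine, of any difference among the 6 times and of a 12 h component, and tests of the 6 steps between neighbouring times. Benjamini-Hochberg adjustment ran over all genes (and over all 6 steps at once). The threshold was 0.05. Scripts were tested on simulated data. The 3 arrays per time limit the precision. Alternatives were quantile normalization, centred array medians, a pseudocount of 1 or 64, every gene kept or 60% of genes left out, all probe sets, a replicate block, no trend in the variance, array weights, a fit with the WT arrays of the cohort for the spread, a threshold of 0.01 and leaving out each array. Leaving out ZT12 replicate 1 and ZT16 replicate 2 together was chosen after seeing the data.

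The genes and lists were chosen with earlier results of these data known. Named genes are the clock lists, Sirt1, the 5 widest called cosines in each window, up to 5 members of smallest p in each list with 3 or more called, the 3 largest rises and falls in each step, the 6 widest 12 h components and the 6 widest genes called among times but not by the cosine. Predicted genes, sensory receptors and genes of chromosome 18 were counted but not named. Other list members, the cell markers and the genes listed for promoter motifs were named after their values were seen.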

Additional observations from a re-analysis of the deposited data

How the results depend on the processing

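Counts of genes with a called 24 h cosine stayed within 1.5 times of 3089 under the alternatives run, except for 1735 at a threshold of 0.01. That threshold also gave 1139 genes that differed among times, 4 with a 12 h component, 231 with a neighbouring change and 529 with a peak in the dark. As deposited, 1945 genes were called both by the cosine and among times. Dark-hour peaks numbered 982 as deposited, 1535 after quantile normalization and 1649 after centring. Without a trend in the variance 8 genes had a 12 h component. With array weights 4326 genes differed among times, 114 had a 12 h component and 2299 a neighbouring change. Without ZT12 replicate 1 and ZT16 replicate 2 these last counts were 159 and 1777. The causes were not tested. Leaving out single arrays gave 2582 to 3543 cosine calls, 1623 to 2722 among times, 4 to 140 for 12 h, 401 to 1363 for neighbouring changes and 781 to 1054 dark-hour peaks.

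The replicate number did not pair the arrays: 11 of 45 same-number pairs had deviations correlated over 0.1, and 3 of 18 arrays were closest to their own number. With the number as a block there were 3016 cosine calls, 2154 among times, 28 with a 12 h component, 757 neighbouring changes and 937 dark-hour peaks. Of 189 named genes 179 were called, 151 of them in every setting in which they were tested. In 0 did the peak move nearer to the opposite hour while the gene was called both ways. Most of these genes were picked because they were called with a wide swing or a small p. The counts therefore do not describe called genes in general. Leaving out 60% of genes left 11 of the 189 untested. The 28 others lost the call somewhere, most often Apoa1, Gsr, Sox9 and Apoa5.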

Other observations

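Probe sets without a single gene symbol also varied with time. Of 5755 probe sets with no symbol above the same filter, 237 had a called 24 h cosine (4.12%, limma adjusted p under 0.05), 92 of them peaking around ZT8 and 51 around ZT12, and 48 had an amplitude of at least 2-fold. Of 1025 probe sets with several symbols 98 were called (9.56%), 33 of them around ZT8. They are unnamed here.

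Some genes varied widely between the replicates of a time. At ZT12, Sult1e1, an oestrogen sulfotransferase, read 5.95, 12.79 and 6.60, and Asns, asparagine synthetase, read 4.92, 9.29 and 8.20. At ZT16 Asns read 5.16, 8.28 and 7.15. Saa2, an acute phase protein, read 7.44, 12.62 and 9.24 at ZT12. At ZT4 Cish, a target of STAT5, read 5.32, 8.71 and 6.33, while Bcl6, a repressor of STAT5 targets, read 10.54, 7.72 and 10.36. These genes were chosen after their values were seen, for their spread.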
